A study of Mus musculus with 4 samples.

Results

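The genes described here are 9 genes of B cell identity: Pax5, Cr2, Fcmr, Fcrl1, Fcrl5, Fcrla, Cd72, Bank1 and Rgs13. They were chosen by symbol as B cell genes from values of the same cells, so their high levels in B cells are a description and carry no test. All 9 were found among the 4099 complete gene rows used. The samples were droplet single-cell RNA libraries of CD45-positive cells, negative for propidium iodide (a dye that enters dead cells), sorted from mouse mammary tumours. They were 4T1 tumours, from a mouse mammary carcinoma line that can be transplanted into BALB/c hosts. The labels name a Mif-depleted group (sgMif) and a wild-type group (CON), each with 2 libraries, and each library pooled 3 tumours. Mif encodes macrophage migration inhibitory factor, and the depletion was in the tumour cells, so the B cells came from the host. Animal age is not given in the labels used here.

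In the deposited annotation, 45781 barcodes carry 23 different cell type names, and each barcode ends in a suffix of 1, 2, 3 or 4. No label ties a suffix to a library, so nothing below compares sgMif with CON. Counts were used for all 13162 cells of suffix 1, of which 1785 were named B_cell, and for 3221 cells of suffix 2, of which 420 were. The annotation names 11961 cells of suffix 2, 1481 of them B_cell, so only 26.9% of that suffix had counts. Suffixes 3 and 4 had no counted cells. Each suffix was treated as 1 sample without replicates, and the 2 sets of counted cells shared 12 barcode sequences. B cells had a median of 558 UMIs (unique molecules counted) in suffix 1 and 1352 in suffix 2, over genes of chromosomes 1 to 4 and part of 5. A level is the UMIs of a gene per 10000 counted UMIs of the summed cells. Brackets hold exact 95% intervals, which cover counting error only. Of 11 genes listed as B cell markers, 7 were measured, and these are members themselves. Cd79a, Cd79b and Ms4a1 were not analysed here, so the name B_cell was not checked with other defining markers.

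B cells recognise antigen through a surface immunoglobulin, and a set of co-receptors raises or lowers the signal. Pax5 is the transcription factor that keeps a cell in the B lineage, and it is switched off as B cells become antibody-secreting plasma cells. Cr2 (CD21) binds complement fragments on antigen, and Fcmr is the receptor for the constant part of IgM. Fcrl1 and Fcrl5 are Fc receptor-like surface proteins, and Fcrla is a relative that stays inside the cell. Cd72 is an inhibitory lectin receptor, Bank1 is a scaffold protein downstream of the B cell receptor, and Rgs13 is a regulator of G protein signalling known from germinal centre B cells. Germinal centres are the sites where activated B cells divide and mutate their antibody genes.

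The genes lie on 3 chromosomes in the GENCODE M21 annotation of GRCm38. Cr2, Fcmr, Fcrla and Rgs13 are on chromosome 1, Bank1, Fcrl1 and Fcrl5 on chromosome 3, and Cd72 and Pax5 on chromosome 4. Fcrl1 (chr3:87376387-87402934) and Fcrl5 (chr3:87435773-87500678) are neighbours on the plus strand, 32839 bases apart. Cd72 (chr4:43446462-43454628) ends 1070129 bases before Pax5 (chr4:44524757-44710487), both on the minus strand. Bank1 (chr3:136053363-136326066, minus strand) overlaps the antisense gene Gm31243 by 113822 bases, and Cd72 overlaps Tesk1 on the other strand by 1603 bases. Whether the counting used strand is not given in the sources used here, so reads of these overlapping pairs may not have been told apart.

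Start site sequences are shown for the pair of members with the smallest share of their UMIs in B cells, Cd72 and Fcrl1, and for the pair with the largest, Rgs13 and Fcmr. Each line holds the 250 bases before the RefSeq gene start on GRCm38.p6, written along the gene's strand. Capitals mark matches to the core GAGGAA, or TTCCTC on the other strand, of PU.1, a transcription factor of myeloid and B cells encoded by Spi1. The windows are chr4:43454627-43454876 (minus strand), chr3:87376137-87376386 (plus strand), chr1:144177373-144177622 (minus strand) and chr1:130865527-130865776 (plus strand).
Cd72: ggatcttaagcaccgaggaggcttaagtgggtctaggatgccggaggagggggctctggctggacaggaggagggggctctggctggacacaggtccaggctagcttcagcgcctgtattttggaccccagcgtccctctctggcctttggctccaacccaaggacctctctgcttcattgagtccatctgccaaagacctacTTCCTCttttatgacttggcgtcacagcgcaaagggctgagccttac
Fcrl1: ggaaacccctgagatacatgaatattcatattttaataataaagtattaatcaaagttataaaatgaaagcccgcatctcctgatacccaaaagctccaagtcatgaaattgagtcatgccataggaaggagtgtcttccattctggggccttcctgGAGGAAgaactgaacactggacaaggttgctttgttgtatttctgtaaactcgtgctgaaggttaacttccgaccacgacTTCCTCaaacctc
Rgs13: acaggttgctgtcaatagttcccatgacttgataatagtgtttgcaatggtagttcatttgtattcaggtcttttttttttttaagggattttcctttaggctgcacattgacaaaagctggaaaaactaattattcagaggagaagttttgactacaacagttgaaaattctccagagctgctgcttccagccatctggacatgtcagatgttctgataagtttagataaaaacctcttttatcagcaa
Fcmr: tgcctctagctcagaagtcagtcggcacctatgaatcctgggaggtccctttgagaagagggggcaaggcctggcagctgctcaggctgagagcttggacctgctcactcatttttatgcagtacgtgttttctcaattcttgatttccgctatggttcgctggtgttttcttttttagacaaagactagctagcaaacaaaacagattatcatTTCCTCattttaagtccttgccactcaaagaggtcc

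The PU.1 core was found in 4 of the 9 members (Cd72, Fcmr, Fcrl1 and Fcrla), beside 23.3% of 32851 windows of the same length over all genes. Fcrl1 held 2 matches, and the other three held 1 each. The match began 47 bases before the start in Cd72, 36 in Fcmr and 37 in Fcrla. The octamer ATGCAAAT, searched on both strands, was in 0 members and in 1.60% of all windows. The EBF core CCCNNGGG was in Bank1 and in 11.8% of all windows, and the E-box CAGCTG was in Fcmr and in 13.0%. The E-box and PU.1 matches of Fcmr did not overlap. These matches are letters in a window and were not tested as binding sites.

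The members were far higher in B cells than in the rest, with Cd72 least so. Each member was called higher when the interval of its ratio, B cells over all other cells of the suffix, lay above 2-fold. All 9 of 9 were called in suffix 1, where 14.8% of 4099 genes were, and 9 of 9 in suffix 2, where 6.38% of 4057 genes were. The members were chosen for this contrast, so nothing is read from the counts. Summed over the 9 genes, B cells had 61.0 UMIs per 10000 in suffix 1 [59.8, 62.2] and 36.5 in suffix 2 [35.3, 37.8]. The median of the other names was 3.23 in suffix 1 and 2.81 in suffix 2.

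**Figure D1:**
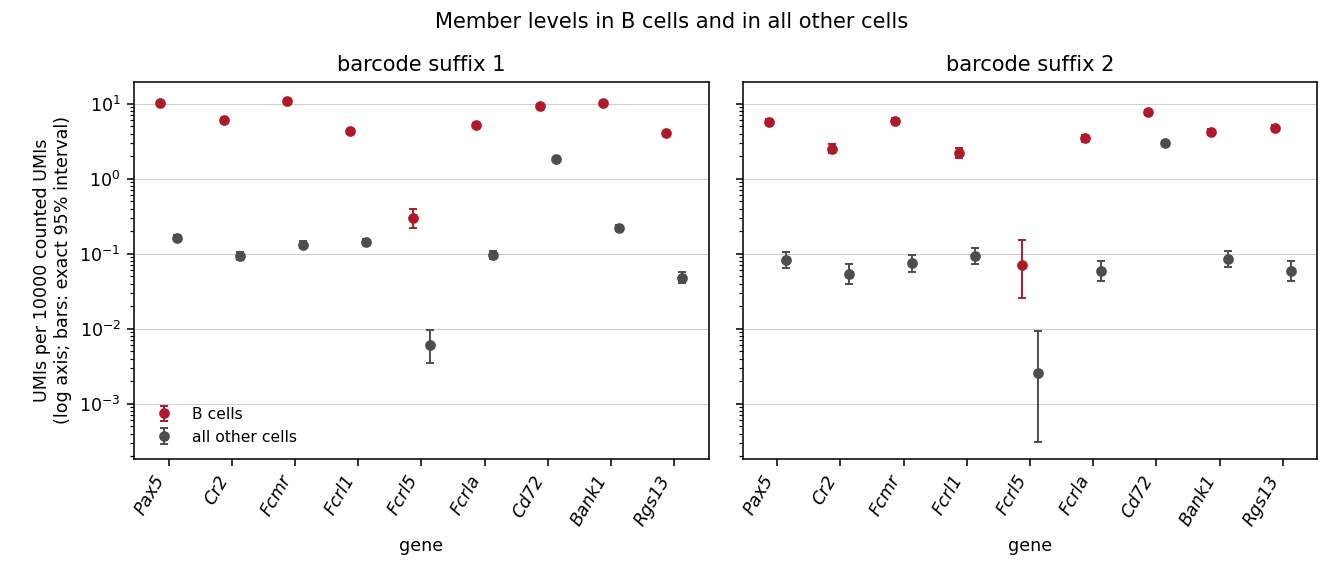
Level of each gene in B cells (red) and in all other cells (grey), as UMIs per 10000 counted UMIs on a log axis, with exact 95% intervals for counting error, in barcode suffix 1 (left) and suffix 2 (right). The gap is narrowest for Cd72, at 9.46 against 1.84 in suffix 1 and 7.75 against 3.03 in suffix 2.

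Pax5 stood at 10.2 per 10000 in B cells of suffix 1, against 0.162 in all other cells, a log2 ratio of 5.97 [5.82, 6.13]. In suffix 2 its level was 5.67 in B cells and 0.0828 in all other cells, a log2 ratio of 6.10 [5.72, 6.50]. At least 1 Pax5 UMI was found in 50.3% of B cells in suffix 1 and in 50.5% in suffix 2. The Pax5 level in B cells of suffix 2 lay below that of suffix 1, while the intervals of the ratios overlapped.

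Of the surface receptors, Fcmr had 10.9 per 10000 in B cells, against 0.133 in all other cells of suffix 1, and 5.88 against 0.0750 in suffix 2. Its log2 ratios were 6.36 [6.20, 6.53] and 6.29 [5.90, 6.71]. Cr2 had 6.15 against 0.0939 in suffix 1 and 2.52 against 0.0543 in suffix 2. A Cr2 UMI was found in 31.4% of B cells in suffix 1 and in 31.2% in suffix 2, and the thinned shares were 28.4% and 17.8%. Fcrl1 had 4.33 in B cells, against 0.144 in other cells of suffix 1, and 2.21 against 0.0944 in suffix 2. Its log2 ratios, 4.91 [4.73, 5.09] and 4.55 [4.15, 4.96], were the lowest of the 9 after Cd72.

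Fcrl5 was close to the limit of these libraries. It had 50 UMIs in 37 B cells of suffix 1, against 17 UMIs in 13 other cells, and 6 UMIs in 6 B cells of suffix 2, against 2 UMIs in 2 other cells. The log2 ratios of the suffixes were 5.63 [4.81, 6.52] and 4.78 [2.29, 8.12]. In suffix 2 the highest level was in cDC2_Cd209a from 1 UMI, so no order can be read there.

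Cd72 was the member least limited to B cells. Its level was 9.46 [8.99, 9.94] in B cells of suffix 1, and the next names were Macro_Ccl12 at 7.64, cDC2_Cd209a at 7.56 [6.65, 8.57] and Macro_Maf at 4.82 [4.57, 5.08]. The intervals of B cells and Macro_Ccl12 overlapped, and those of Macro_Ccl12 and cDC2_Cd209a overlapped. In suffix 2 B cells stood at 7.75 [7.17, 8.36], after Macro_Ccl12 at 12.6 [9.54, 16.2] and Macro_Maf at 9.22 [8.58, 9.90]. B cells held 23.4% of all Cd72 UMIs in suffix 1 and 21.9% in suffix 2. Counted as UMIs per cell, Cd72 had log2 ratios of 0.96 and 0.90, below the 2-fold line. The median depth was 558 UMIs in B cells and 1450 in all other cells of suffix 1, and 1352 and 1791 in suffix 2.

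Inside the cell, Bank1 had 10.4 per 10000 in B cells, against 0.221 in all other cells of suffix 1, and 4.21 against 0.0853 in suffix 2. Fcrla had 5.22 in B cells, against 0.0953 in other cells of suffix 1, and 3.45 against 0.0595 in suffix 2. Rgs13 had 4.06 against 0.0480 in suffix 1 and 4.77 against 0.0595 in suffix 2, so it alone of the 9 had a higher point level in B cells of suffix 2 than in those of suffix 1. It stood 84.6-fold higher in B cells than in all other cells of suffix 1 (log2 interval [6.13, 6.68]) and 80.1-fold in suffix 2 ([5.88, 6.80]). These were the highest point ratios of the 9, and their intervals overlapped those of Fcmr. B cells held 83.4% of all Rgs13 UMIs in suffix 1 and 89.8% in suffix 2.

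**Figure D2:**
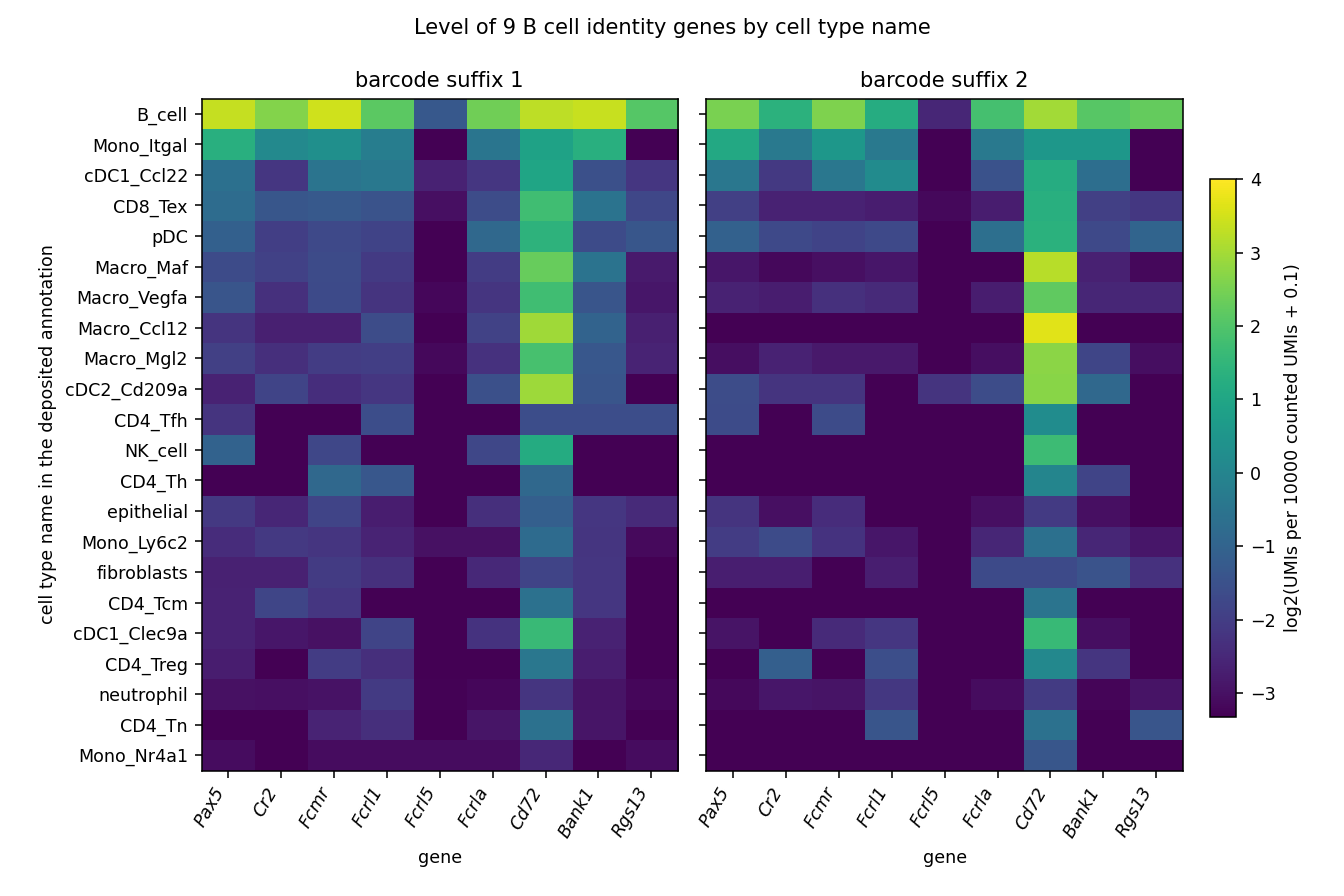
Level of the 9 genes (columns) in each cell type name reported here (rows, B_cell on top), as log2(UMIs per 10000 counted UMIs + 0.1), in barcode suffix 1 (left) and suffix 2 (right). The B_cell row is bright for every gene but Fcrl5, and the Cd72 column is bright in macrophage and dendritic cell rows too.

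Outside B cells, the highest summed level of the 8 members without Cd72 was in Mono_Itgal, a name of 41 cells in suffix 1 and 5 in suffix 2. In suffix 1 it came next after B cells for 6 of the 9 genes, with Pax5 at 2.38 [1.61, 3.37], Bank1 at 2.38 [1.61, 3.37] and Fcmr at 1.15 [0.643, 1.90]. In the same cells, 6 measured T cell markers summed to 13.0 per 10000, 5 neutrophil markers to 312 and 4 macrophage markers to 31.8. These sums were 6.86, 193 and 14.2 in B cells of suffix 1. In all cells other than B cells they were 7.55, 2558 and 119. In suffix 2 the 5 Mono_Itgal cells had 16.3, 148 and 8.15, against 5.997, 142 and 34.7 in B cells. All cells other than B cells had 10.4, 1364 and 107 there. Of the 41 cells of suffix 1, 11 had UMIs of 3 or more of the 8 genes. These 11 held 81.5% of the 8 genes' UMIs in Mono_Itgal of suffix 1. The part of the other cell types' markers in these levels was not tested.

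Cells with several members at once were also found under other names. UMIs of 3 or more of the 8 genes were found in 936 of 1785 B cells of suffix 1 (52.4% [50.1, 54.8]) and in 230 of 420 B cells of suffix 2 (54.8% [49.9, 59.6]). Among all other cells they were found in 1.66% [1.43, 1.91] in suffix 1 and 0.750% [0.465, 1.14] in suffix 2. In suffix 1 they were found in 41 of 527 CD8_Tex cells, 41 of 737 Macro_Maf cells, 39 of 871 Macro_Vegfa cells and 12 of 169 pDC cells. These CD8_Tex cells had a median of 6482 UMIs, against 3292 in all CD8_Tex cells, and held 81.6% of that name's UMIs of the 8 genes. In suffix 2 the same names had fewer, with 4 of 267 CD8_Tex, 1 of 229 Macro_Maf, 3 of 253 Macro_Vegfa and 3 of 77 pDC cells. No cell of the 5 names starting with CD4 had 3 or more (0 of 1112 in suffix 1, which allows a share of up to 0.270%, and 0 of 269 in suffix 2, up to 1.12%). The CD4-named cells were shallower, with medians of 655.5 and 913 UMIs, against 3292 and 1930 in CD8_Tex. No doublet caller was run, and the part of depth and of doublets in these counts was not tested.

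Fcrl1 in neutrophils, and Bank1 in Macro_Maf of suffix 1, held larger shares of the 8 genes' UMIs than in B cells. Of the UMIs of the 8 genes, Fcrl1 held 51.7% [45.8, 57.6] in neutrophils of suffix 1 and 48.8% [33.3, 64.5] in those of suffix 2, against 8.39% and 7.69% in B cells. The Fcrl1 UMIs came from 142 of 5712 neutrophils (2.49%) and 21 of 925 (2.27%), with at most 2 UMIs in a cell. In CD4-named cells, which should lack the gene, 0.809% of 1112 and 1.12% of 269 had one. Median depths were 1120 and 976 UMIs in neutrophils and 655.5 and 913 in CD4-named cells. Thinned to 500 UMIs per cell, the shares were 0.780% in neutrophils and 0.225% in CD4-named cells of suffix 1, and 0.768% and 0 of 250 cells in suffix 2. The neutrophil shares came from 40 of 5126 and 6 of 781 cells, and the CD4-named share of suffix 1 from 2 of 888. In the same thinned neutrophils the next of the 8 genes was Bank1 in suffix 1, with 10 cells, and Rgs13 in suffix 2, with 3. The Fcrl1 intervals of neutrophils and CD4-named cells overlapped, at [0.558, 1.06] and [0.0273, 0.811] in suffix 1. In suffix 2 they were [0.282, 1.66] and [0, 1.46], and no difference between these names is read from the thinned shares.

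Most neutrophils with Fcrl1 had no other member. In suffix 1 another of the 8 genes was found in 3.52% [1.15, 8.03] of the 142 neutrophils with Fcrl1 and in 1.92% [1.58, 2.32] of the 5570 without. In suffix 2 it was found in 3 of 21 with Fcrl1 and in 9 of 904 without. The neutrophils with Fcrl1 were deeper, with medians of 2134.5 UMIs against 1111 in suffix 1, and 1371 against 969 in suffix 2. The part of depth in these shares was not tested. The dendritic cell name cDC1_Clec9a, with medians of 4857 and 6220 UMIs, had an Fcrl1 UMI in 7.27% of cells in suffix 1 and 7.64% in suffix 2, and the thinned shares were 1.33% and 0.649%. In cDC1_Ccl22 the Fcrl1 level was 0.670 [0.335, 1.20] in suffix 1 and 1.05 [0.452, 2.06] in suffix 2, where it was the name next after B cells. Bank1 held 38.5% [34.0, 43.2] of the 8 genes' UMIs in Macro_Maf of suffix 1, against 20.1% in B cells, and was found in 100 of 737 Macro_Maf cells. In Macro_Maf of suffix 2 it held 5 of 15 UMIs of the 8 genes.

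Single B cells held few of the 9 genes at once. In suffix 1 at least 1 member was found in 90.8% of B cells [89.3, 92.1], and 62.2% had 3 or more, against 2.33% of all other cells. In suffix 2 at least 1 was found in 81.4% [77.4, 85.0] and 3 or more in 64.5%, against 0.964% of all other cells with 3 or more. In CD4-named cells 6.74% of suffix 1 and 10.0% of suffix 2 had at least 1 member UMI. Thinned to 500 UMIs, which left out 673 shallower B cells of suffix 1 and 60 of suffix 2, the shares were 91.5% and 75.8% in B cells and 4.73% and 15 of 250 cells in CD4-named cells. No B cell held all 9.

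**Figure D3:**
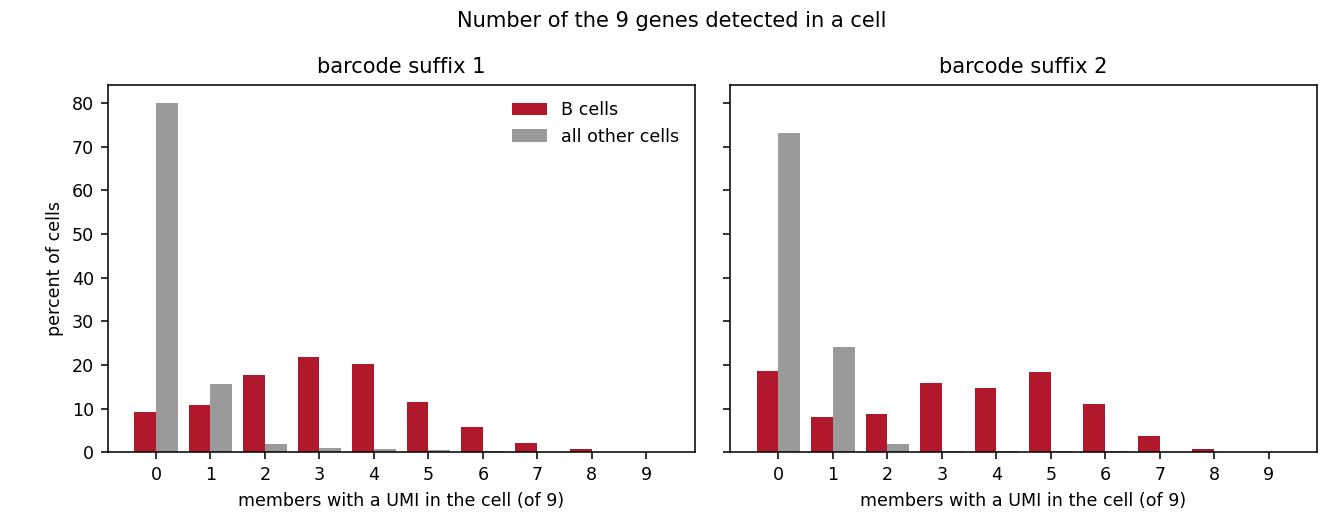
Share of B cells (red) and of all other cells (grey) by the number of the 9 genes with a UMI in the cell, in barcode suffix 1 (left) and suffix 2 (right). In suffix 1 the B cells peak at 3 genes (21.8% of B cells), while 80.1% of all other cells have none.

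The B cells without a member UMI stood apart in several measures. They numbered 165 in suffix 1 and 78 in suffix 2, with a median of 371 and 461 UMIs, against 575 and 1452 in B cells with a member. In suffix 1 the 5 neutrophil markers summed to 1065 per 10000 in them, against 133 in B cells with a member, and in suffix 2 to 322 against 117. The 4 macrophage markers summed to 21.6 against 13.7 in suffix 1 and to 26.1 against 35.9 in suffix 2. Bach2, a transcription factor gene of B cells before the plasma cell stage, stood at 2.06 against 6.21 in suffix 1 and at 0.562 against 5.75 in suffix 2. Ralgps2, another gene high in B cells here, differed less, at 5.90 against 9.77 and at 5.53 against 6.17. Cd55, high in B cells too, stood at 4.87 against 8.99 and at 0.281 against 2.08. Of the B cells without a member, 12.1% in suffix 1 and 35.9% in suffix 2 had 20 or more Slpi UMIs. The shares were 1.48% and 5.85% in B cells with a member. The part of depth, of neutrophil RNA and of cells with many Slpi UMIs in the missing members and in these pooled levels was not tested.

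Rgs13 was spread unevenly over the B cells. It was found in 8.63% of B cells in suffix 1 [7.37, 10.0] and 23.8% in suffix 2 [19.8, 28.2], and thinned shares were 8.54% and 12.2%. Cells with 3 or more Rgs13 UMIs, 87 in suffix 1 and 59 in suffix 2, held 86.3% and 85.4% of its UMIs in B cells, and the most in a cell was 30 and 21. Another gene, Slpi, which encodes a secreted protease inhibitor, was uneven too. Cells with 20 or more Slpi UMIs, 44 in suffix 1 and 48 in suffix 2, held 96.6% and 98.6% of its UMIs in B cells. The cells past both limits numbered 3 in suffix 1 and 1 in suffix 2.

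**Figure D4:**
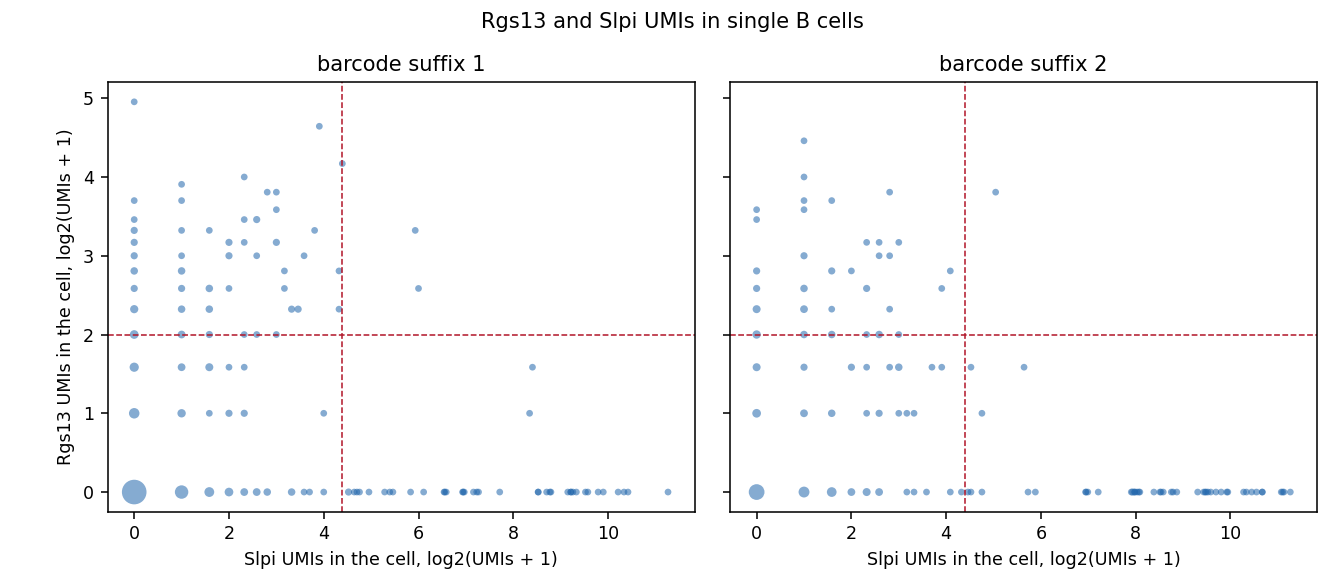
Rgs13 UMIs (vertical axis) against Slpi UMIs (horizontal axis) in single B cells, both as log2(UMIs + 1), in barcode suffix 1 (left) and suffix 2 (right), with point size growing with the number of cells. Dashed lines mark 3 Rgs13 UMIs and 20 Slpi UMIs, and 3 cells of suffix 1 and 1 of suffix 2 lie past both.

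B cells were therefore divided, after these values were seen, into Rgs13-high cells (3 or more Rgs13 UMIs and under 20 of Slpi), Slpi-high cells (20 or more of Slpi) and the remaining B cells. These are ranges of a count and not cell types, and a limit in UMIs favours deep cells. Rgs13-high cells numbered 84 in suffix 1 (4.71% of B cells) and 58 in suffix 2 (13.8%), with medians of 3052.5 and 2892.5 UMIs. Slpi-high cells numbered 44 (2.46%) and 48 (11.4%), with medians of 2964.5 and 3182.5 UMIs. The remaining B cells numbered 1657 and 314, with medians of 540 and 900 UMIs. Near the limits, 67 and 41 B cells had 1 or 2 Rgs13 UMIs, 11 and 7 had 10 to 19 Slpi UMIs, and 8 and 6 had 20 to 39.

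Bank1 was called lower in Rgs13-high than in remaining B cells of both suffixes, and Pax5 was the member whose point ratio lay nearest to 1. The 8 other members summed to 29.8 per 10000 in Rgs13-high cells, against 70.5 in remaining B cells of suffix 1, and to 24.0 against 45.9 in suffix 2. As UMIs per cell the same sums ran the other way, at 9.87 in Rgs13-high against 5.11 in remaining B cells of suffix 1, and at 7.38 against 6.92 in suffix 2. In suffix 1, 3 of the 9 members were called lower by more than 2-fold, beside 2.53% of 3709 genes. These were Fcmr at 4.42 against 13.9 (log2 ratio -1.66 [-1.93, -1.39]), Bank1 at 1.91 against 13.7 (-2.85 [-3.27, -2.45]) and Fcrl1 at 2.05 against 5.42 (-1.40 [-1.82, -1.01]). In suffix 2 only Bank1 was, at 2.08 against 6.58 (-1.66 [-2.20, -1.17]), beside 2.09% of 3487 genes.

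Pax5 stood at 8.52 in Rgs13-high cells and 11.9 in remaining B cells of suffix 1 (log2 ratio -0.48 [-0.68, -0.28]), and at 6.56 and 7.38 in suffix 2 (-0.17 [-0.48, 0.14]). Cr2 stood at 4.82 against 7.34 in suffix 1 and 1.74 against 3.68 in suffix 2, and Cd72 at 5.54 against 11.6 and 4.99 against 11.6. As UMIs per cell, with Rgs13-high cells the deeper ones, the log2 ratio of Pax5 was 1.71 in suffix 1 and 0.86 in suffix 2, and that of Bank1 -0.66 and -0.63. In suffix 1 the per-cell log2 ratios of Cr2 (1.58), Cd72 (1.12), Fcrla (0.89), Fcrl1 (0.79) and Fcmr (0.54) were also positive, so the directions of Fcmr and Fcrl1, called lower by level, turned with the scale. In suffix 2 they were -0.05 for Cr2, -0.18 for Cd72, 0.45 for Fcrla, 0.27 for Fcrl1 and -0.23 for Fcmr. Bank1 was negative on both scales in both suffixes. Fcrl5 had 1 UMI in Rgs13-high cells of suffix 1 and 0 in those of suffix 2, which allows a level of up to 0.168.

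The Slpi-high cells had low levels of most members. The 8 members other than Rgs13 summed to 7.11 per 10000 in them, against 70.5 in remaining B cells of suffix 1, and to 4.37 against 45.9 in suffix 2. In suffix 1, 6 of the 9 members were called lower, beside 3.43% of 3699 genes, and in suffix 2, 7 of 9, beside 2.05% of 3510 genes. Pax5 stood at 1.14 against 11.9 in suffix 1 (log2 ratio -3.38 [-4.10, -2.75]) and at 0.669 against 7.38 in suffix 2 (-3.46 [-4.39, -2.67]). Cr2 had 2 UMIs in the Slpi-high cells of suffix 1, a log2 ratio of -6.01 [-9.06, -4.15], and 8 UMIs in suffix 2, a log2 ratio of -3.16 [-4.40, -2.15]. Fcmr stood at 0.854 against 13.9 and at 0.257 against 8.99.

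Fcrla was called lower in Slpi-high cells of suffix 2 alone. Its level was 2.85 [2.11, 3.75] against 6.19 [5.75, 6.65] in remaining B cells of suffix 1, and 1.23 [0.791, 1.84] against 4.53 [3.94, 5.18] in suffix 2. The log2 ratio was -1.12 [-1.56, -0.71] in suffix 1, not called because its interval crosses the 2-fold line, and -1.87 [-2.55, -1.26] in suffix 2, called lower. It was found in 43.2% and 31.2% of Slpi-high cells, against 30.7% and 37.9% of remaining B cells. Slpi itself took 9.78% of the counted UMIs of Slpi-high cells in suffix 1 and 16.1% in suffix 2. As UMIs per cell, the log2 ratios were -0.92 and -2.04 for Pax5, -3.55 and -1.73 for Cr2, -1.11 and -1.91 for Fcrl1, -1.57 and -3.70 for Fcmr, -1.65 and -2.57 for Bank1, -1.31 and -2.06 for Cd72, and 1.34 and -0.45 for Fcrla. At least 1 of the 8 members was found in 54.5% and 41.7% of Slpi-high cells.

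Set directly against each other, Rgs13-high over Slpi-high cells, 5 of the 8 members other than Rgs13, which set the ranges, were called higher in each suffix, beside 1.81% of genes in suffix 1 and 3.38% in suffix 2. None of the 9 was called lower, beside 2.59% and 3.32% of genes. Pax5 (log2 ratio 2.90 and 3.30), Fcmr (2.37 and 3.87), Fcrl1 (2.17 and 2.58) and Cd72 (2.70 and 2.28) were called in both. Cr2 was called in suffix 1 alone and Bank1 in suffix 2 alone. Fcrla was not called, at 2.52 against 2.85 in suffix 1 and 3.03 against 1.23 in suffix 2. The summed level of S100a8 and S100a9, genes of the neutrophil protein calprotectin, was 93.1 in Rgs13-high, 71.2 in Slpi-high and 231 in remaining B cells of suffix 1, and 49.9, 195 and 151 in suffix 2. That of 4 macrophage markers was 10.2, 26.0 and 13.5 in suffix 1, and 18.0, 48.0 and 35.5 in suffix 2. Their part in the member levels was not tested.

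**Figure D5:**
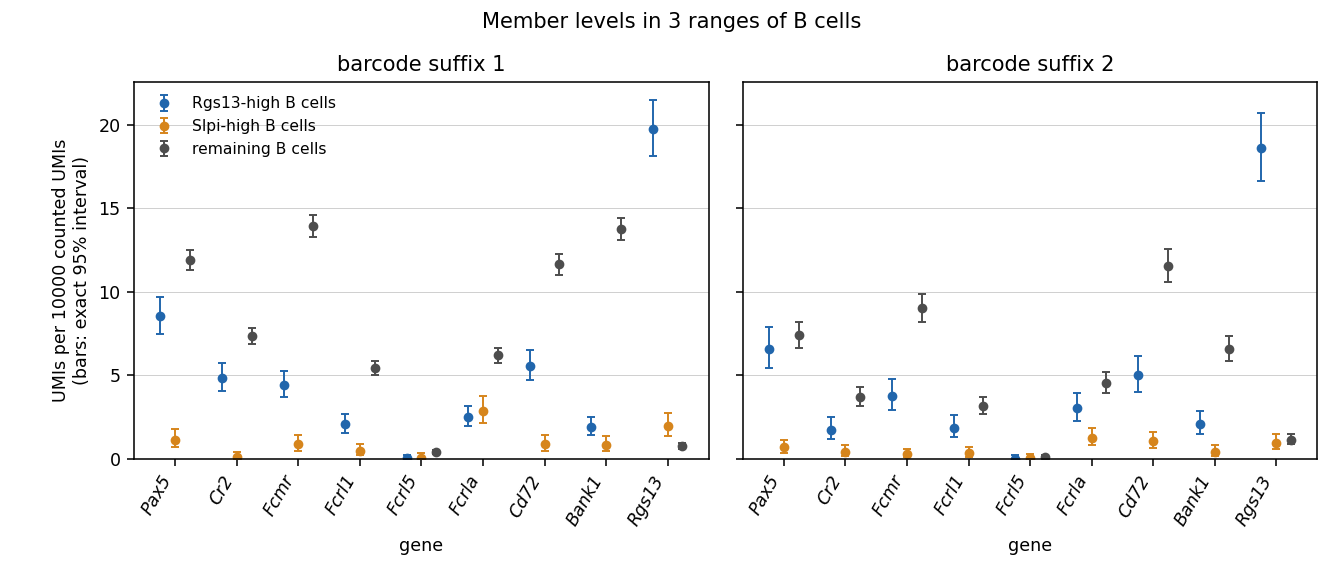
Level of each gene in Rgs13-high (blue), Slpi-high (orange) and remaining B cells (grey), as UMIs per 10000 counted UMIs with exact 95% intervals for counting error, in barcode suffix 1 (left) and suffix 2 (right). The orange points lie near 0 for most genes, Fcrla reaches 2.85 in suffix 1, and Rgs13 is high in blue because it set that range.

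Other genes of the B cell programme were read from lists. Of 18 measured genes (39 listed) for B cell surface and signalling proteins other than the members, 8 were higher and 1 was lower in B cells than in all other cells of suffix 1, and 5 and 1 in suffix 2. Genes called higher made up 14.8% of all genes in suffix 1 and 6.38% in suffix 2, and genes called lower 12.6% and 9.79%. The median log2 ratio over the list was 0.90 and 0.21, beside 0.42 and 0.18 over all genes. Ralgps2, a guanine nucleotide exchange factor gene, stood at 9.52 against 0.324 in suffix 1 and 6.09 against 0.303 in suffix 2. Cd55, which encodes a complement regulator, stood at 8.73 against 0.410 and 1.86 against 0.264. Cd40, the receptor for T cell help, stood at 1.99 against 0.482 and 1.59 against 0.592, and Slamf1, a self-binding receptor of lymphocytes, at 2.60 against 0.285 and 1.66 against 0.340.

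Of 8 measured B lineage transcription factor genes (26 listed), 3 were higher in each suffix, and 3 were lower in suffix 1 and 2 in suffix 2. Over all genes 14.8% and 6.38% were higher, and 12.6% and 9.79% were lower. Bach2 stood at 5.94 against 0.351 in suffix 1 and 5.10 against 0.431 in suffix 2. Foxo1 stood at 5.29 against 0.834 and 3.56 against 1.06, and Pou2f1, the gene of an octamer-binding factor, at 2.03 against 0.521 and 1.51 against 0.596. Spi1, the gene of PU.1, was lower in B cells in both, at 4.82 against 13.5 and 4.60 against 12.1. Ikzf2, the gene of Helios, was lower in both with log2 ratios of -2.11 and -1.54, and Lef1, the gene of a factor of the Wnt pathway, was lower in suffix 1 (-1.55). In the Slpi-high cells Bach2 was called lower than in remaining B cells in both suffixes, at 0.171 against 6.51 and 0.257 against 5.92.

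The gene families of the members were also read. Of 8 measured genes of the Fc receptor family (9 listed), which held Fcgr1, Fcgr2b, Fcgr3, Fcgr4, Fcer1g, Fcrls, Fcrl6 and Fcrlb, 0 were higher in B cells, and 6 were lower in suffix 1 and 3 in suffix 2. Fcrls, a neighbour in name of Fcrl1, had 11 UMIs in B cells and 1087 in other cells of suffix 1. Of 8 measured RGS genes (10 listed), 0 were higher in B cells and 2, Rgs5 and Rgs16, were lower in both suffixes. With 12.6% and 9.79% of all genes lower, 2 of 8 is too small a count to set the list apart. Rgs1 stood at 12.3 in B cells against 21.8 in other cells of suffix 1, and Rgs2 at 19.9 against 15.6.

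Germinal centre and cell division genes were read in the Rgs13-high cells. Of 6 measured genes (18 listed), 5 were higher and 1 was lower than in remaining B cells in suffix 1, and 1 and 1 in suffix 2. Genes called higher made up 3.13% of all genes in suffix 1 and 0.315% in suffix 2. Mybl1, a Myb family transcription factor gene, was higher in both, at 6.04 against 0.774 in suffix 1 and 6.17 against 1.67 in suffix 2. Stmn1, a microtubule regulator of dividing cells, stood at 41.2 against 7.22 and 43.6 against 19.9, and was called in suffix 1 alone. Lmo2 was called lower in both, at 1.80 against 7.84 and 0.729 against 3.91. The genes lowest against remaining B cells, chosen by their values, included Cd55 at 0.324 against 11.7 in suffix 1, and Bcl2, which protects cells from death, at 0.216 against 3.94. In suffix 2 these stood at 0.224 against 3.07 and 0.0561 against 1.80.

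The plasma cell markers Jchain, Sdc1, Mzb1, Prdm1 and Xbp1 were not analysed here, so the Slpi-high cells were given no cell type name. Of 3 measured plasma cell genes (16 listed), Slpi set the range and is not counted. Of the other 2, Sec61b and Cd28, 2 were higher in Slpi-high than in remaining B cells of suffix 1 and 1, Sec61b, in suffix 2. Genes called higher made up 3.7% of all genes in suffix 1 and 1.31% in suffix 2. Sec61b, a subunit of the channel through which proteins enter the endoplasmic reticulum, stood at 105 against 16.0 and 98.3 against 22.8. Among the genes highest against remaining B cells, chosen by their values, were Edem2, of endoplasmic reticulum quality control, at 13.1 against 1.22, Ddost, of the enzyme that attaches sugars to proteins, at 19.4 against 2.19, and Ssr2, a subunit beside the same channel, at 21.3 against 2.58 in suffix 1. In suffix 2 they stood at 11.3 against 1.14, 16.5 against 2.14 and 18.6 against 3.26.

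Of 3 measured mast cell genes (10 listed), Cpa3, a protease gene, was called higher in B cells, at 0.659 against 0.0283 in suffix 1 and 0.414 against 0.115 in suffix 2. Its 109 UMIs in B cells of suffix 1 came from 4 cells, and 106 of them from 2 cells, while in suffix 2 33 of 35 came from 3 cells. Of those 2 cells in suffix 1 and 3 in suffix 2, 1 in each held Rgs13, a gene also known from mast cells, with 1 UMI. Hdc, the histidine decarboxylase gene, was lower in B cells in both suffixes, at 1.05 against 7.29 and 0.994 against 4.65. Over all genes 14.8% and 6.38% were called higher, and 12.6% and 9.79% lower. With these shares, 1 of 3 in either direction is too small a count to set the list apart.

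The genes most like the members were taken from the mean Pearson correlation with them of log2(level + 0.1) over the 22 names with 20 or more cells in each suffix, ranked in suffix 1, and B cells are 1 of the 22 points. The first was the antisense gene Gm31243, with a mean r of 0.81 in suffix 1 and 0.75 in suffix 2, which overlaps Bank1 on the other strand. It stood at 3.47 against 0.0405 in suffix 1 and 1.59 against 0.0181 in suffix 2. Il12a, the gene of the interleukin-12 p35 chain, had a mean r of 0.71 and 0.52 and stood at 2.39 against 0.131 and 0.828 against 0.134. Mybl1 had a mean r of 0.69 and 0.55, and Pik3c2b, a lipid kinase gene, 0.68 and 0.54. The others were Gm14302, Gm15848, Cacna1e, Cenps, Chst10 and Gm10553, with a mean r of 0.64 to 0.78 in suffix 1 and 0.31 to 0.73 in suffix 2. Gm14302, ranked next after Gm31243 in suffix 1, had 0.78 there and 0.32 in suffix 2. Among the members, Cd72 was least like the other 8, with a mean r of 0.51 and 0.27. In suffix 1 Pax5, Cr2, Fcrla and Bank1 were near 0.8, at 0.82, 0.81, 0.80 and 0.80.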

How the data were processed

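Droplet single-cell RNA libraries of sorted CD45-positive tumour cells were analysed. The deposited table gives a UMI count for each gene in each cell, and a second deposited file gives the authors' cell type name for each barcode. The submitters' processing notes name Cell Ranger, Seurat and the mouse build GRCm38 (mm10). Their roles and versions, and how cells were filtered and named, were not stated in what was read. The table used held 4099 complete gene rows, 1 incomplete row was left out, and a cell's total is therefore not its full depth.

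Counts were pooled by cell type name within each suffix and expressed per 10000 counted UMIs, with Poisson 95% intervals. Shares have Clopper-Pearson intervals and ratios conditional binomial ones, all exact. Only the calling of ratios beyond 2-fold was checked on simulated data, with Poisson counts that lack uneven spread over cells. The coverage of the intervals was not checked. A gene was called higher or lower when the interval of its ratio lay beyond 2-fold, with no p-value, because cells are not replicates. Where a gene had no UMI, the limit given is that of 3 counts. For thinned shares, 500 UMIs were drawn from each cell and shallower cells were left out. Doublets were not searched for, and the labels do not say if any had been removed. The planned edgeR test of sgMif against CON was not run, because no label ties a suffix to a sample. All members were named, with the 10 genes most like them (50 or more UMIs over all cells of suffix 1). Only some of the measured genes of the lists were named. The lists of marginal zone and B1 genes (4 of 16 measured) and of B cell precursor genes (1 of 12) are not described. Genes leading the Rgs13-high and Slpi-high cells were chosen after their values were seen. Members, lists and limits were chosen with earlier results of these data known. Motifs were searched in 250 bases before RefSeq gene starts on both strands, and all 9 members matched by symbol. Certain genes and 1 cell type name are not reported here. The tools were matplotlib 3.10.9, pandas 2.3.3, scipy 1.17.1 and numpy 2.4.6 under Python 3.11.15.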

Additional observations from a re-analysis of the deposited data

How the results depend on the processing

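All 9 members were above 2-fold in B cells with cells of suffix 2, without B cells carrying 5 or more C1q or 10 or more calprotectin UMIs (225 in suffix 1), without S100a8 and S100a9 in the denominator, by the point ratio and with 50 or more UMIs required, and 8 were as UMIs per cell, where Cd72 was not. The summed level, 61.0, was 36.5 in suffix 2, 68.5 without those B cells and 73.6 as a mean over cells. The share of B cells with a member, 90.8%, was 81.4% in suffix 2, 93.8% without those B cells and 82.9% when 2 or more UMIs were required, while thinning gave 91.5%. Without Slpi-high cells, an alternative chosen after seeing the data, it was 91.7% in suffix 1 and 86.6% in suffix 2. The cause of these shifts was not tested. No paired analysis was possible because the suffixes cannot be tied to samples, and the planned fits of sgMif against CON (edgeR, DESeq2 size factors, the replicate block and leaving out each replicate) were not run. Depth limits Fcrl5 most, with 6 UMIs in B cells of suffix 2.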
